A study of Homo sapiens with 6 samples.

Results

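Interferon-stimulated genes are the genes that cells switch on when they sense a virus or receive an interferon signal, and 45 of them were followed here in lung cancer cells given a plant diterpenoid. The 45 were chosen by name, as genes known to be induced by interferon, and were found by matching the Ensembl gene identifier to the gene symbol among 60671 gene rows. The rule uses no measured value, but the list was drawn up with earlier results of these data known. The compound was 9α,11α-dihydroxy-kaurenoic acid, labelled AL-X. Cells of A549, HCC827 and H1975, which the labels give as non-small cell lung cancer lines of WT genotype, received 10 µg/mL AL-X for 48 h, and matching cells received the solvent DMSO for 48 h. HCC827 and H1975 are known to carry activating EGFR mutations, so the WT label does not mean that a line is free of mutations. Each line gave 1 AL-X library and 1 DMSO library, 6 in all, so the 3 lines are the replicates of the treatment and no line has a replicate of its own.

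Type I and type III interferons bind receptors on the cell surface and activate the kinases JAK1 and TYK2, which phosphorylate STAT proteins. STAT2 takes part with IRF9 in the complex ISGF3, which enters the nucleus and binds a sequence called the interferon-stimulated response element, or ISRE. Interferon gamma acts mainly through another sequence, the gamma-activated sequence, or GAS. Many of the induced proteins block steps of viral replication, others feed back on the pathway, and tumour cells differ widely in how many of these genes they express without added interferon.

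Of the 45 genes, 37 had at least 1 window in the RefSeq promoter table used here (GRCh38.p14), from 250 bases before to 50 bases after a start site, and windows of the other 8 were not used here. A gene counts once, by a match in any of its windows. The core of the ISRE, GAAA followed by any 2 bases and a further GAAA, stood on either strand in 25 of the 37 (67.6%), against 1195 of all 27305 genes of the table (4.38%). The core of a GAS, TTC and GAA with any 3 bases between them, stood in 13 of the 37 (35.1%), against 2560 of all these genes (9.38%). The stretches below hold the ISRE letters of 8 genes on which the results turn, 4 whose AL-X level lay above DMSO in H1975 and 4 whose AL-X level lay at least 2-fold below it there. Each is printed along the gene, with the ISRE letters of either strand in capitals and 15 bases on both sides, and with overlapping matches as a single run of capitals. In order they lie at chr1:1013369-1013414 (+), chr1:27672261-27672363 (-), chr10:89392492-89392544 (+), chr19:17405730-17405775 (-), chr3:122564317-122564356 (-), chr3:122680795-122680834 (+), chr4:168318781-168318855 (-) and chr7:93118091-93118130 (-).
ISG15: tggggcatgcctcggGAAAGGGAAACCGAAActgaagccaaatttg
IFI6: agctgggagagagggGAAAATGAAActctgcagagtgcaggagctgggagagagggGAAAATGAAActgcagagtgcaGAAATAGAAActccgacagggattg
IFIT1: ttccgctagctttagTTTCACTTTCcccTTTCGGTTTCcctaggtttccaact
BST2: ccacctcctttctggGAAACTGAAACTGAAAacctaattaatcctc
PARP9: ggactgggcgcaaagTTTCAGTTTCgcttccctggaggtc
PARP14: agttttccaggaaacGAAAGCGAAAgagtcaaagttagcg
DDX60: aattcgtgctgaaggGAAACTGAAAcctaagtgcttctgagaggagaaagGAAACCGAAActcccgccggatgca
SAMD9: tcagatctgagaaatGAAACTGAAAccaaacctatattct
The window of DTX3L, which is transcribed away from PARP9, holds the same ISRE letters as that of PARP9, at chr3:122564332-122564341. IRF1 held a GAS match and no ISRE match in its window.

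Total counts ranged from 98139178 to 126840915 per library. Genes of the mitochondrial genome took 0.0201% to 0.656% of the counts in the AL-X libraries and 6.41% to 6.87% in the DMSO libraries, so this share moved with the treatment in every line. The epithelial markers EPCAM, KRT8, KRT18, KRT19 and CDH1 were at 1 CPM (counts per 1e6 counts, scaled by the trimmed mean of M-values, TMM) or more in every library, with a sum of 2125 to 4368 CPM. Leukocyte markers summed to 1.68 to 5.88 CPM with AL-X and 0.455 to 6.31 CPM with DMSO, and only CD14 reached 1 CPM. Fibroblast markers summed to 1.17 to 9.21 CPM with AL-X and 6.40 to 20.6 CPM with DMSO, and endothelial markers to 0.817 to 4.05 CPM and 0.254 to 7.20 CPM in the same order of treatments. Levels are bulk averages, so that fewer cells and less RNA per cell cannot be told apart.

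The lines differed in how strongly they expressed the interferon-stimulated genes, and the order of the lines was much the same with and without AL-X. The summed level of the 45 genes was 2277 CPM with AL-X and 2568 CPM with DMSO in H1975, 1140 and 2140 CPM in HCC827, and 345 and 716 CPM in A549. H1975 held the highest DMSO level for 34 of the 45 genes, HCC827 for 10 and A549 for 1. A549 held the lowest for 37. With AL-X, H1975 was highest for 33, HCC827 for 11 and A549 for 1, and 34 genes had the same highest line under both treatments. The number of genes at 1 CPM or more was 28 with AL-X and 32 with DMSO in A549, 36 and 41 in HCC827, and 44 and 44 in H1975. TRIM22, a nuclear antiviral ubiquitin ligase, was the gene under 1 CPM in H1975. With 1 library per line and treatment this order has no replicate check. Shares of all genes highest or lowest in each line are not given here, so these counts have no comparison.

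Per kilobase of merged exons, which allows genes to be compared, the DMSO libraries were led by different genes. In A549 these were OAS3, a sensor of double-stranded RNA that makes the second messenger activating RNase L, at 17.9 CPM per kb, the ISG15-conjugating enzyme UBE2L6 at 12.6 and the ubiquitin ligase DTX3L at 10.8. In HCC827 they were the RNA helicase-like protein DDX60 at 43.0, the antiviral protein IFI44 at 41.6 and DTX3L at 33.1. In H1975 they were IFITM3, a membrane protein that blocks viral fusion, at 63.3, the ubiquitin-like modifier ISG15 at 58.2 and IFIT3 at 50.5. With AL-X the top of H1975 was ISG15 at 137 CPM per kb, IFITM3 at 120 and the mitochondrial and endoplasmic reticulum protein IFI6 at 105. In A549 with AL-X it was OAS3 at 8.73, IFI35 at 7.14 and PLSCR1 at 6.68. The median over the 45 genes was 0.599 CPM per kb with AL-X and 1.77 with DMSO in A549, 2.39 and 5.69 in HCC827, and 6.79 and 9.15 in H1975.

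**Figure D1:**
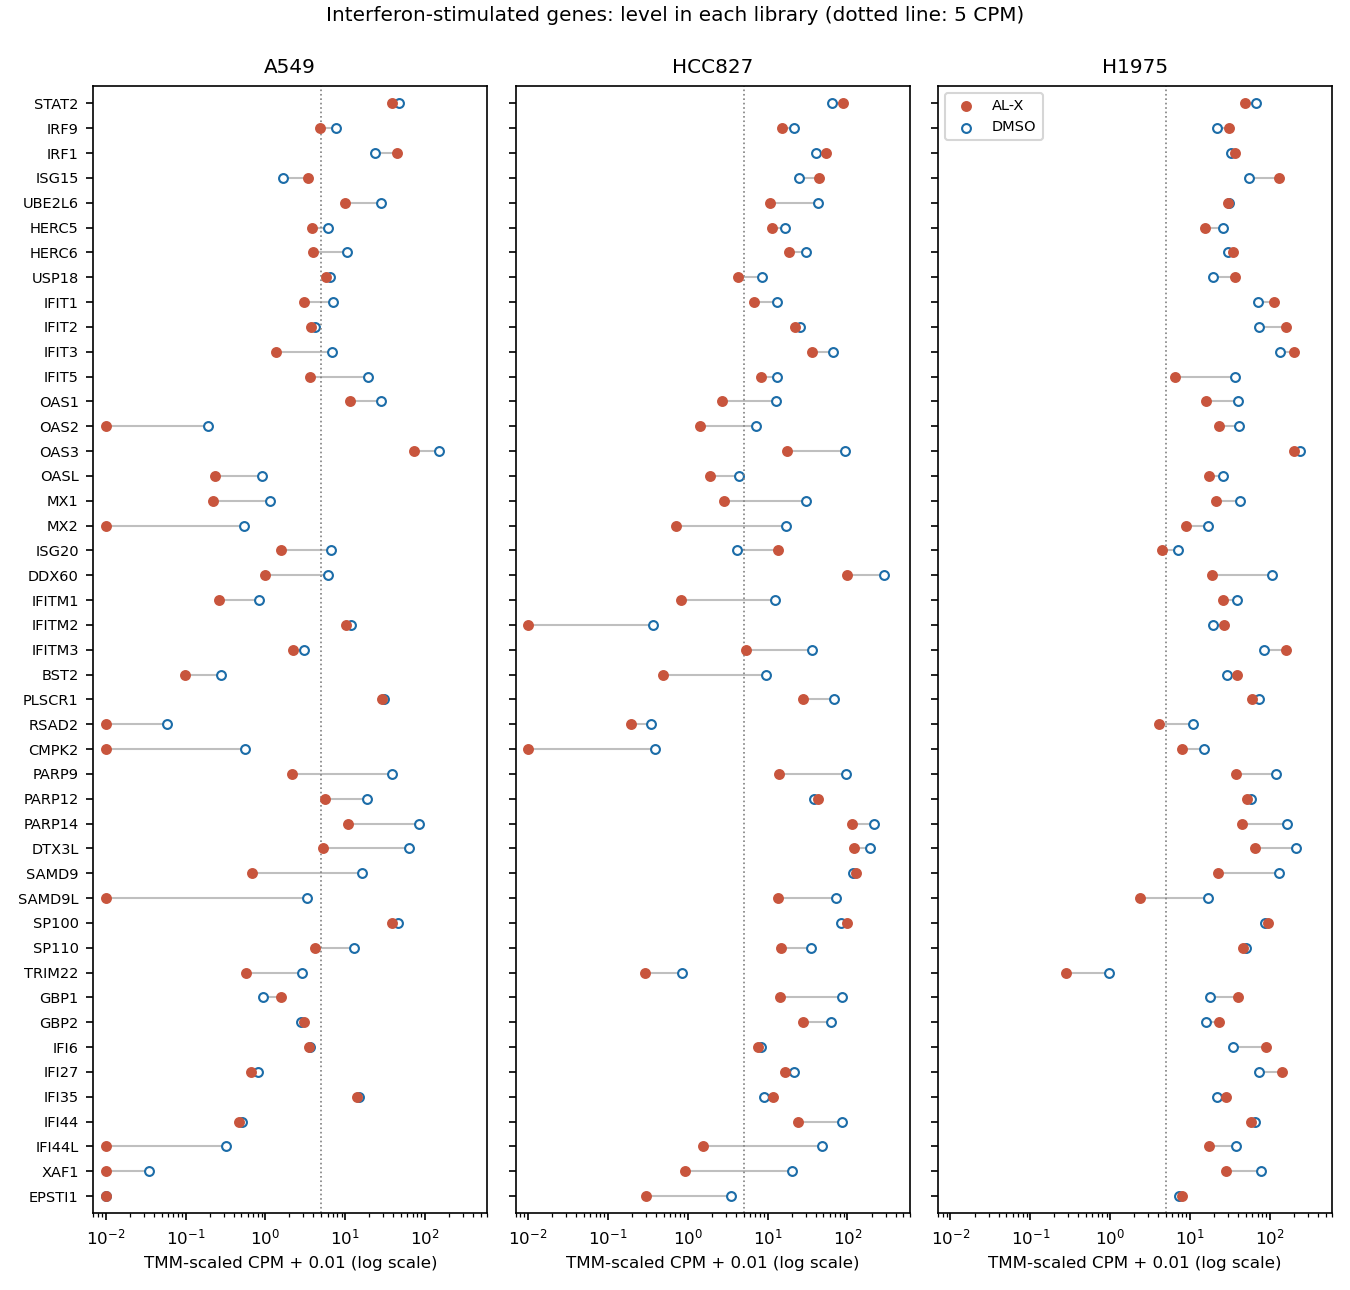
Level of each of the 45 interferon-stimulated genes in the 6 libraries, as TMM-scaled CPM plus 0.01 on a log scale, with 1 panel per line, filled points for AL-X and open points for DMSO. Most open points lie to the right of the filled ones in A549 and HCC827, whereas in H1975 18 of the 44 genes at 5 CPM or more have the AL-X point further right, 4 of them by at least 2-fold, and 12 have it at least 2-fold further left.

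Within a line the fold was the log2 ratio of the AL-X to the DMSO level (TMM-scaled CPM, prior count 2), and genes were counted as higher or lower from 2-fold on, provided that the higher of both libraries reached 5 CPM. In A549, 24 of the 45 genes reached 5 CPM, and of these 0 were at least 2-fold higher with AL-X, against 30.0% of all genes so considered, and 15 were at least 2-fold lower, against 31.4%. In HCC827, 1 of 39 was higher, against 10.7%, and 19 were lower, against 17.2%. In H1975, 4 of 44 were higher, against 15.4%, and 12 were lower, against 17.7%. The median log2 fold of the interferon-stimulated genes was -1.35 in A549 and -0.96 in HCC827, and -0.21 in H1975, and that of all considered genes 0.00, -0.04 and 0.07 in the same order. A minimum in the higher library keeps some genes only for their DMSO level, 11 in A549, 9 in HCC827 and 3 in H1975. Among the genes at 5 CPM in both libraries, 6 of 13 were lower in A549, against 20.6% of all genes with that level in both, 11 of 29 in HCC827, against 11.8%, and 10 of 41 in H1975, against 11.8%. With the mitochondrial genes left out before scaling, 15 genes were lower in A549, 19 in HCC827 and 12 in H1975, as with them. With 1 library per arm these are descriptions with no test.

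Scaling by library totals instead of TMM shifted the median log2 fold of all considered genes by -1.10 in A549, by 0.13 in HCC827 and by -0.45 in H1975. Among all genes past 2-fold, the share higher with AL-X was then 19.5% in A549, 47.8% in HCC827 and 19.7% in H1975, against 48.8%, 38.4% and 46.5% with TMM. Folds are therefore relative to the bulk of genes in the same library. With library totals, 0 of 24 interferon-stimulated genes were above 0 in A549, against 1 with TMM, and 13 of 44 in H1975, against 18, and none of the 44 was 2-fold higher in H1975, against 6.91% of all genes so considered, where 17 were 2-fold lower, against 28.2%. In A549, 23 of the 24 were then 2-fold lower, against 51.9% of all genes.

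**Figure D2:**
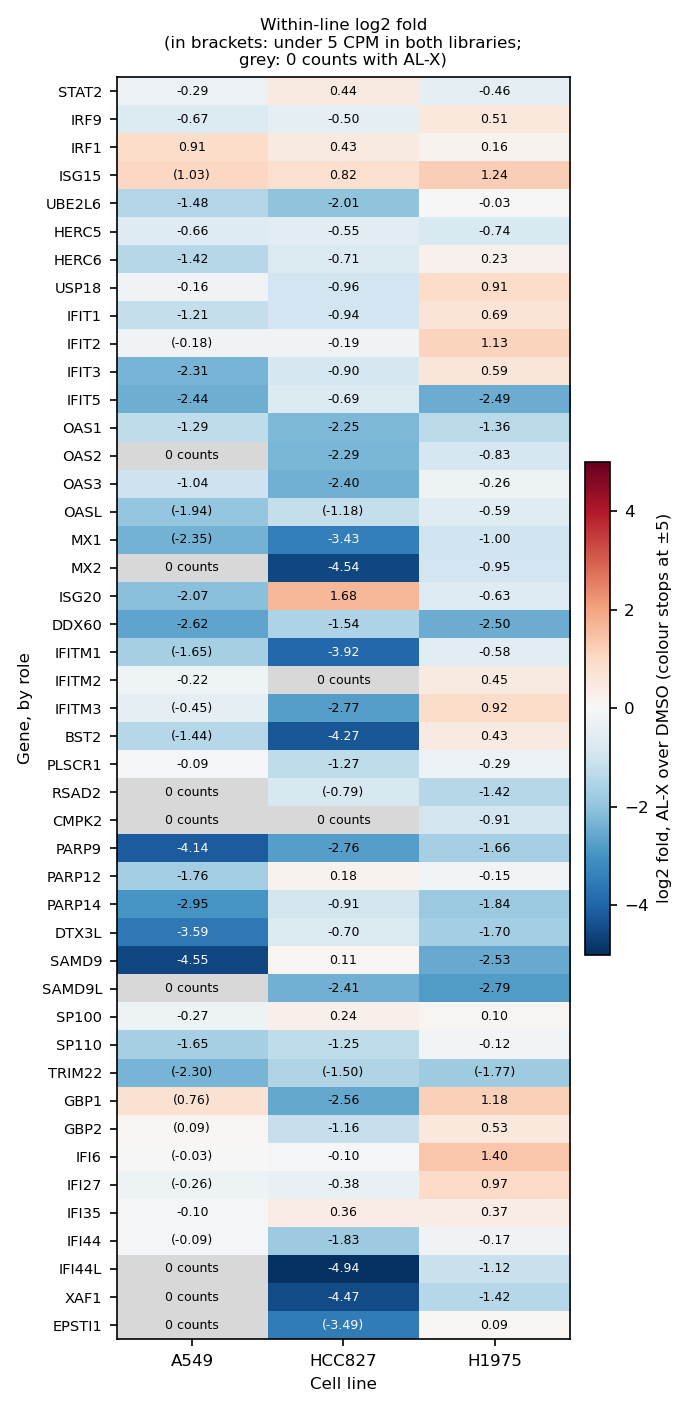
Within-line log2 fold of AL-X over DMSO for each of the 45 interferon-stimulated genes in A549, HCC827 and H1975, ordered by role, with red for higher and blue for lower with AL-X. Values in brackets belong to genes under 5 CPM in both libraries and grey cells to genes with 0 counts with AL-X. The lowest coloured values are -4.55 in A549 (SAMD9), -4.94 in HCC827 (IFI44L) and -2.79 in H1975 (SAMD9L).

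The genes of the signal itself differed little in mRNA level between treatments. STAT2 (ENSG00000170581, chromosome 12, 56341597 to 56360155), the ISGF3 subunit with the activation domain, had 38.5 CPM with AL-X and 47.2 with DMSO in A549, 87.5 and 64.3 in HCC827, and 48.6 and 66.7 in H1975. IRF9 (ENSG00000213928, chromosome 14, 24161053 to 24166565), the DNA-binding subunit, had 4.81 and 7.65 CPM in A549, 15.3 and 21.6 in HCC827, and 31.0 and 21.7 in H1975. Of its 50-base stretches 43.8% also occur in other transcripts, so its counts are uncertain. IRF1 (ENSG00000125347, chromosome 5, 132481609 to 132490798), a transcription factor induced through a GAS, had 44.6 CPM with AL-X and 23.7 with DMSO in A549, 53.7 and 39.9 in HCC827, and 36.4 and 32.6 in H1975. Of its 50-base stretches 22% occur in other transcripts. It was the only 1 of the 23 genes at 5 CPM in every line whose fold lay above 0 in all 3, at 0.91, 0.43 and 0.16, but with library totals it lay below 0 in A549, at -0.09, and in H1975, at -0.25. With TMM none of these 3 genes differed 2-fold in any line, whereas with library totals STAT2 stood at -1.30 and IRF9 at -1.67 log2 units in A549.

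Members of the ISG15 pathway, in which a ubiquitin-like protein is attached to others, went in different directions. ISG15 itself (ENSG00000187608, chromosome 1, 1001138 to 1014540) had 3.41 CPM with AL-X and 1.67 with DMSO in A549, 44.1 and 25.0 in HCC827, and 129 and 54.7 in H1975. Its AL-X library was the higher of the pair in every line, with log2 folds of 1.03, 0.82 and 1.24, and the counting interval in H1975 ran from 1.19 to 1.28. With library totals these folds became 0.03, 0.94 and 0.83. UBE2L6, which passes ISG15 on to its ligases, was lower with AL-X in A549 at 9.93 against 27.7 CPM and in HCC827 at 10.6 against 42.6 CPM, and had 29.8 against 30.5 CPM in H1975. The ISG15 ligase HERC5 had log2 folds of -0.66, -0.55 and -0.74, less than 2-fold in each line with TMM, and with library totals -1.66 in A549 and -1.15 in H1975. HERC6, a related ligase, stood at -1.42 in A549, at -0.71 in HCC827 and at 0.23 in H1975. USP18 (ENSG00000184979, chromosome 22, 18149899 to 18177397), which removes ISG15 and damps the receptor, had 5.69 and 6.34 CPM in A549, 4.29 and 8.38 in HCC827, and 36.5 and 19.5 in H1975. USP18 shares 23.4% of its 50-base stretches with other transcripts, USP41 among them.

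Some of the IFIT proteins bind viral RNA that lacks the host cap structure, and 3 of the 4 genes split by line. IFIT1 (ENSG00000185745, chromosome 10, 89392546 to 89406486) had 3.06 CPM with AL-X and 7.10 with DMSO in A549, 6.70 and 12.9 in HCC827, and 113 and 70.0 in H1975. IFIT2 had 3.68 and 4.18 CPM in A549, 22.05 and 25.1 in HCC827, and 160 and 73.4 in H1975, where its log2 fold was 1.13 (counting interval 1.09 to 1.16). IFIT3 had 1.37 and 6.84 CPM in A549, 35.5 and 66.2 in HCC827, and 200.4 and 133 in H1975. Each of the 3 was thus above its DMSO level in H1975, with TMM and with library totals, and below it in A549 and HCC827. IFIT5 (ENSG00000152778, chromosome 10, 89414586 to 89421001), which binds RNA with a triphosphate end, was below DMSO in every line, at 3.58 CPM with AL-X and 19.5 with DMSO in A549, 8.19 and 13.2 in HCC827, and 6.41 and 36.1 in H1975.

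The largest group held the OAS family, the MX GTPases, the exonuclease ISG20 and the helicase-like DDX60. Of its considered genes 4 of 4 were 2-fold lower in A549, 6 of 7 in HCC827 and 3 of 8 in H1975, against 31.4%, 17.2% and 17.7% of all genes. Several genes of this group were considered for their DMSO level alone. Of those at 5 CPM in both libraries 2 of 2 were 2-fold lower in A549, 2 of 2 in HCC827 and 3 of 7 in H1975. Of all genes with that level in both, 20.6%, 11.8% and 11.8% were 2-fold lower in the same order. OAS1 (ENSG00000089127, chromosome 12, 112906777 to 112933222), like OAS3 a synthetase that activates RNase L, had 11.4 CPM with AL-X and 27.8 with DMSO in A549, 2.64 and 12.6 in HCC827, and 15.6 and 40.1 in H1975. Of the 23 interferon-stimulated genes considered in every line it was 1 of 3, with DDX60 and PARP9, at least 2-fold lower in all 3 lines. The share of all genes that were 2-fold lower in all 3 lines is not given here. OAS3 had 72.1 and 148 CPM in A549, 17.6 and 93.0 in HCC827, and 200.5 and 239 in H1975. MX1 (ENSG00000157601, chromosome 21, 41420304 to 41459214), a GTPase that traps viral ribonucleoproteins, had 0.208 and 1.13 CPM in A549, 2.81 and 30.6 in HCC827, and 21.0 and 42.1 in H1975. Its paralog MX2, which restricts retroviruses, had 0.705 and 16.8 CPM in HCC827 and 8.84 and 17.0 in H1975. In A549 MX2 had 0 counts with AL-X and 65 with DMSO, at least 12.0-fold lower against a floor of 3 counts per library. DDX60 (ENSG00000137628, chromosome 4, 168216293 to 168318807) had 0.980 and 6.12 CPM in A549, 99.6 and 290.4 in HCC827, and 18.8 and 106 in H1975. ISG20 (ENSG00000172183, chromosome 15, 88636153 to 88656483) was the only interferon-stimulated gene at least 2-fold higher in HCC827, at 13.4 CPM with AL-X and 4.18 with DMSO, and had 1.56 and 6.61 CPM in A549 and 4.49 and 6.96 in H1975.

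Proteins of the membrane that act on viral entry or release differed most between HCC827 and H1975. IFITM3 (ENSG00000142089, chromosome 11, 319669 to 327537) had 2.23 CPM with AL-X and 3.05 with DMSO in A549, 5.30 and 36.2 in HCC827, and 161 and 85.3 in H1975. BST2 (ENSG00000130303, chromosome 19, 17402939 to 17405648), the tetherin that holds budding virions at the cell, had 0.0891 and 0.271 CPM in A549, 0.473 and 9.42 in HCC827, and 38.9 and 28.8 in H1975. The log2 fold of BST2 was thus -4.27 in HCC827 and 0.43 in H1975, the second a value of 0.03 with library totals. IFITM1 had 0.809 and 12.5 CPM in HCC827 and 25.6 and 38.4 in H1975. IFITM2 had 0 counts with AL-X and 53 with DMSO in HCC827, at least 14.96-fold lower, and 26.7 and 19.5 CPM in H1975. The 3 IFITM genes share 32.0% to 35.2% of their 50-base stretches with other transcripts, so reads may be split among genes. The scramblase PLSCR1 had 28.99 and 30.9 CPM in A549, 28.1 and 67.6 in HCC827, and 60.1 and 73.2 in H1975.

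The ADP-ribosyltransferases PARP9 and PARP14 and the PARP9 partner DTX3L, which lie side by side on chromosome 3, held some of the lowest folds. PARP9 (ENSG00000138496, chromosome 3, 122527924 to 122564577) had 2.17 CPM with AL-X and 38.6 with DMSO in A549, 13.9 and 94.8 in HCC827, and 37.9 and 120 in H1975. DTX3L (ENSG00000163840, chromosome 3, 122564238 to 122575203) had 5.26 and 63.3 CPM in A549, 119 and 194 in HCC827, and 64.8 and 211 in H1975. PARP14 (ENSG00000173193, chromosome 3, 122680618 to 122730840) had 10.7 and 82.7 CPM in A549, 113 and 212 in HCC827, and 45.1 and 162 in H1975. All 3 genes were lower with AL-X by more than 2-fold in A549 and H1975, and PARP9 in HCC827 too. PARP12, a zinc finger member on chromosome 7, had a log2 fold of -1.76 in A549, with 0.18 in HCC827 and -0.15 in H1975.

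SAMD9 and SAMD9L, neighbouring genes for proteins that limit translation during poxvirus infection, were at the low end in A549 and H1975. SAMD9 (ENSG00000205413, chromosome 7, 93099513 to 93118023) had 0.668 CPM with AL-X and 16.1 with DMSO in A549, 126.9 and 118 in HCC827, and 22.4 and 130 in H1975. SAMD9L (ENSG00000177409, chromosome 7, 93130055 to 93148369) had 13.4 and 71.2 CPM in HCC827 and 2.38 and 16.6 in H1975. In A549 SAMD9L had 0 counts with AL-X and 398 with DMSO, at least 73.3-fold lower. The nuclear body protein SP100 had log2 folds of -0.27, 0.24 and 0.10 in A549, HCC827 and H1975, and its relative SP110 had -1.65, -1.25 and -0.12. TRIM22 stayed under 5 CPM in all 6 libraries, at 0.564 and 2.86 CPM in A549, 0.280 and 0.828 in HCC827, and 0.267 and 0.949 in H1975.

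The guanylate-binding proteins, GTPases that attack the vacuoles of intracellular pathogens, had opposite signs in HCC827 and H1975. GBP1 (ENSG00000117228, chromosome 1, 89052319 to 89065360) had 1.56 CPM with AL-X and 0.911 with DMSO in A549, 14.3 and 84.2 in HCC827, and 40.1 and 17.7 in H1975. GBP2 had 3.00 and 2.81 CPM in A549, 27.6 and 61.8 in HCC827, and 22.8 and 15.8 in H1975. Both were lower by more than 2-fold in HCC827, and GBP1 was higher by more than 2-fold in H1975.

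Among the remaining IFI genes, IFI6 (ENSG00000126709, chromosome 1, 27666061 to 27672218) had 3.53 CPM with AL-X and 3.60 with DMSO in A549, 7.60 and 8.14 in HCC827, and 90.5 and 34.3 in H1975. Its log2 fold of 1.40 in H1975 (counting interval 1.35 to 1.45) was the highest of the 44 genes considered there. IFI27 stood at 143 and 73.0 CPM in H1975, just under 2-fold, and at 16.5 and 21.4 in HCC827. IFI44L (ENSG00000137959, chromosome 1, 78619922 to 78646145) had 1.55 and 48.1 CPM in HCC827 and 17.2 and 37.5 in H1975, and in A549 0 counts with AL-X against 38 with DMSO, at least 7.003-fold lower. Its neighbour IFI44 had 0.460 and 0.492 CPM in A549, 23.9 and 84.8 in HCC827, and 57.4 and 64.7 in H1975. XAF1 (ENSG00000132530, chromosome 17, 6755447 to 6775647), which promotes apoptosis, had 0.905 and 20.4 CPM in HCC827 and 28.6 and 76.5 in H1975, and in A549 no more than 3 counts in either library. It shares 34.7% of its 50-base stretches with other transcripts, so its counts are uncertain. IFI35 had 14.1 and 15.1 CPM in A549, 11.5 and 8.95 in HCC827, and 28.3 and 21.9 in H1975. EPSTI1 had no count in either A549 library, 36 counts with AL-X and 505 with DMSO in HCC827, and 793 and 924 in H1975.

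RSAD2, which encodes the antiviral enzyme viperin, and its neighbour CMPK2 were scarce outside H1975. RSAD2 had 0 counts with AL-X and 6 with DMSO in A549, 23 and 49 in HCC827, and 412 and 1369 in H1975. CMPK2 had 0 counts with AL-X against 67 with DMSO in A549 and against 56 in HCC827, at least 12.3-fold and 15.8-fold lower, and 794 and 1855 in H1975. OAS2 had 0 counts with AL-X against 22 in A549, at least 4.05-fold lower, and a log2 fold of -2.29 in HCC827. OASL had log2 folds of -1.94, -1.18 and -0.59, the first 2 on fewer than 5 CPM.

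Across the 3 lines together, the test asked whether the shared AL-X effect on a gene differed from 0, given the spread between lines. It was an edgeR quasi-likelihood test with cell line as block and Benjamini-Hochberg adjustment over 20344 genes. The test does not require the same direction in every line. All 45 genes were tested. None of the 45 passed an adjusted p of 0.05, against 0.256% of all genes tested. At an unadjusted p under 0.05, 1 of the 45 was higher with AL-X, against 5.48% of all genes, and 16 were lower, against 10.2%. DESeq2 called 15 of the 45 lower at its adjusted threshold, against 6.93% of all genes, and limma-voom called 3, PARP9, DDX60 and SAMD9L, against 1.60%. Neither called any higher. The estimate was below 0 for 38 of the 45 genes, with a median of -1.09 log2 units against -0.27 for all genes. In 9 of the 45 at least 1 library had 0 counts, where the fitted value depends on the prior count, and the median of the other 36 was -0.68.

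PARP9 had the smallest p of the 45, with an across-line log2 fold of -2.85 (SE 0.59, edgeR adjusted p = 0.0849). DDX60 followed at -2.23 (SE 0.50, edgeR adjusted p = 0.0993). SAMD9L at -3.71 (SE 1.00), IFI44L at -3.60 (SE 1.00) and XAF1 at -3.00 (SE 0.87) had edgeR adjusted p-values of 0.147, 0.150 and 0.162, and each had 0 counts in A549 with AL-X. The other genes lower at an unadjusted p under 0.05 were PARP14, MX1, MX2, DTX3L, IFIT5, OAS1, SAMD9, CMPK2, OAS2, IFITM1 and OAS3. The gene on the higher side was ISG15, at 1.03 log2 units (SE 0.47, edgeR adjusted p = 0.313).

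A further edgeR fit set the response of each line against the mean response of the other lines, as an interaction term, which leaves 1 residual degree of freedom. It called 0 of the 45 genes for A549, against 0.280% of all genes, 0 for HCC827, against 0.261%, and 0 for H1975, against 0% of all genes. At an unadjusted p under 0.05 the counts were 6 of the 45 for A549, against 11.0% of all genes, 7 for HCC827, against 8.19%, and 3 for H1975, against 1.16%. The smallest edgeR adjusted p was 0.0606 for A549, in SAMD9L, and 0.0908 for HCC827, in IFITM2. The differences between lines described above are therefore values of single libraries that did not pass this test. Of 39 genes considered in both HCC827 and H1975, 27 had the higher fold in H1975, against 54.7% of all genes so considered, and 12 lay above 0 in H1975 and below 0 in HCC827, against 23.9%. These were IRF9, HERC6, USP18, IFIT1, IFIT2, IFIT3, IFITM3, BST2, GBP1, GBP2, IFI6 and IFI27, and with library totals HERC6 lay below 0 in H1975 at -0.18 and IFI6 above 0 in HCC827 at 0.03. Of 23 genes considered in every line, 11 were below 0 in all 3, among them UBE2L6, HERC5, SP110 and PLSCR1 besides those with larger folds. The share of all genes below 0 in all 3 lines is not given here, so this count has no comparison.

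Many of these genes sit beside a relative on the chromosome, and neighbours did not always share a fold. The IFIT cluster spans 137.3 kb of chromosome 10 and the OAS cluster 104.9 kb of chromosome 12. In H1975, IFIT1, IFIT2 and IFIT3 had log2 folds of 0.69, 1.13 and 0.59, and IFIT5, at the end of the cluster, -2.49. SAMD9 and SAMD9L lie within 48.86 kb of chromosome 7, and in HCC827 their log2 folds were 0.11 and -2.41. In the same line IFI44L and IFI44, within 44.16 kb of chromosome 1, had -4.94 and -1.83. PARP9, DTX3L and PARP14, within 202.9 kb of chromosome 3, had -4.14, -3.59 and -2.95 in A549 and -1.66, -1.70 and -1.84 in H1975, but -2.76, -0.70 and -0.91 in HCC827. PARP9 and DTX3L share the ISRE letters shown above, and they overlap at their starts, so their reads cannot be told apart there without the strand.

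**Figure D3:**
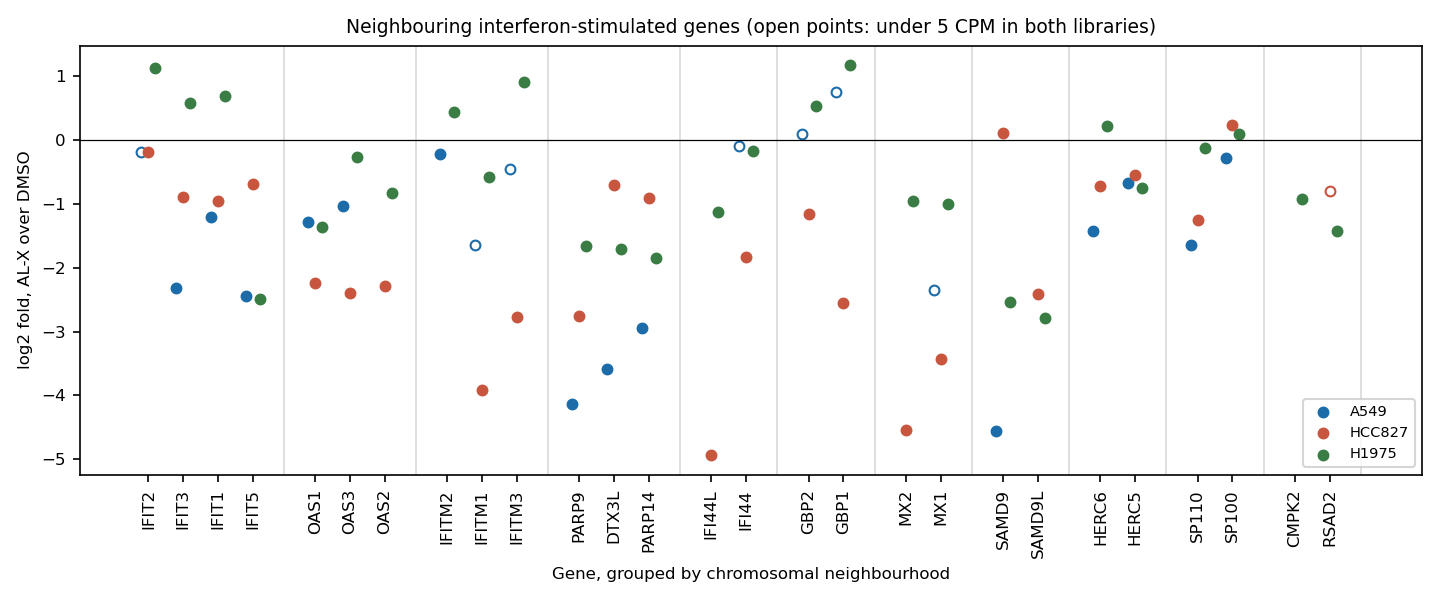
Within-line log2 fold of AL-X over DMSO for interferon-stimulated genes that lie side by side, grouped by neighbourhood, with 1 colour per line and open points for genes under 5 CPM in both libraries. Genes with 0 counts in a library have no point. IFIT5 lies 3 or more log2 units below IFIT1, IFIT2 and IFIT3 in H1975, and SAMD9 lies above SAMD9L in HCC827, at 0.11 against -2.41.

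Gene length moved with the fold in A549 and H1975. Over protein-coding genes, Spearman's rho of fold against merged exonic length was -0.34 in A549 (10863 genes), -0.06 in HCC827 (11023 genes) and -0.35 in H1975 (10916 genes), and over the interferon-stimulated genes -0.35 (24 genes), -0.14 (39 genes) and -0.55 (44 genes). The points of a line share its 2 libraries and are not independent. In H1975 the 11 genes under 3 kb, among them ISG15, IFI6 and IFITM3, had a median log2 fold of 0.45, where all coding genes of that length had 0.64, and the 18 genes of 6 kb or more had -0.89, where long coding genes had -0.27. In A549 the medians were -0.22 for 5 short genes, against 0.94 for short coding genes, and -1.76 for 11 long ones, against -0.76. In HCC827 short and long interferon-stimulated genes had medians of -1.39 (10 genes) and -1.40 (18 genes). With the trend over length removed, an alternative chosen after seeing the data, H1975 kept 1 gene at 2-fold higher, GBP1 at 1.08, with IFIT2 at 0.91, IFI6 at 0.46 and ISG15 at 0.33. The lower genes then numbered 16 in A549, 19 in HCC827 and 12 in H1975. OAS3 in A549 at -0.40 and MX1 and IFI44L in H1975 at -0.73 and -0.71 were no longer 2-fold lower. Shares of all genes past 2-fold with the trend removed are not given here, so these counts have no comparison.

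**Figure D4:**
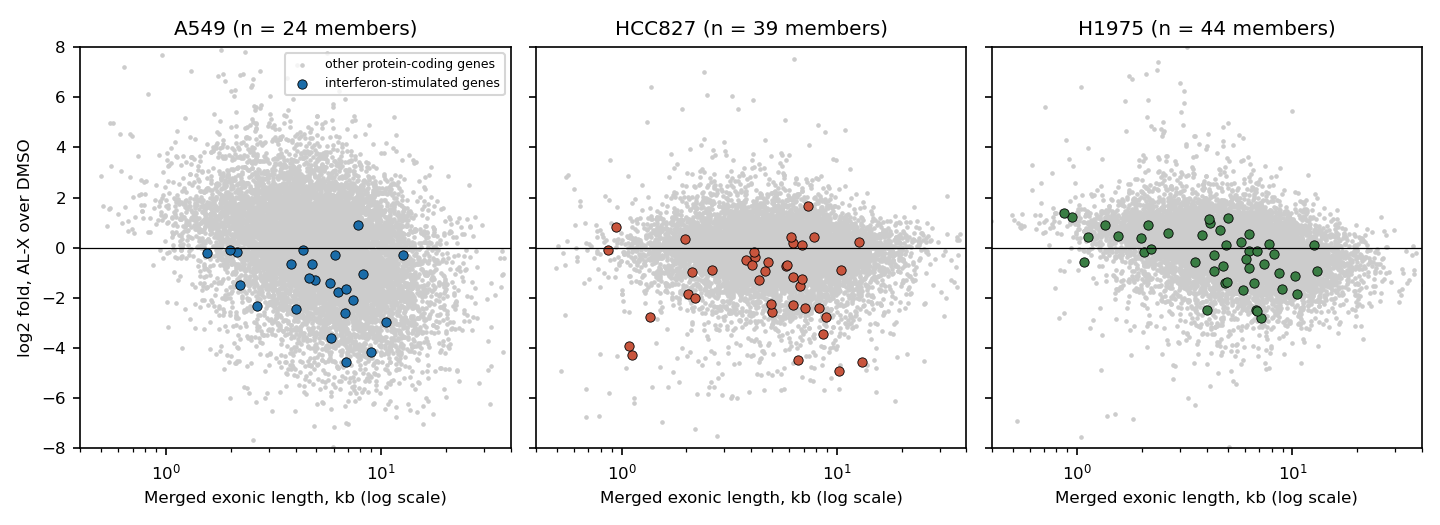
Within-line log2 fold of AL-X over DMSO against merged exonic length in kb on a log scale, with grey points for other protein-coding genes and coloured points for the interferon-stimulated genes at 5 CPM or more. In A549 and H1975 both clouds tilt downwards with length, with a rho of -0.34 and -0.35 over coding genes, and in HCC827 it is -0.06.

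Among the genes at 5 CPM in both libraries, those with ISRE letters in the promoter window had the lower median in each line. The median log2 fold was -1.76 for 5 genes with a match and -0.28 for 6 without in A549, -0.90 for 18 and -0.50 for 9 in HCC827, and -0.26 for 23 and -0.03 for 11 in H1975. These are descriptions of few genes with no test. The ISRE runs of ISG15 and IFI6 and those of PARP14 and DDX60 shown above belong to genes at opposite ends of the H1975 folds.

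Upstream of these genes, counts of the interferons themselves were few. Of 9 ligand genes only IFNE had enough counts to be tested. IFNB1 had 4 counts in HCC827 with AL-X, 4 in H1975 with DMSO and 0 elsewhere, and IFNL1 had 17 with AL-X and 29 with DMSO in H1975. Of 9 receptor and kinase genes, 4 of 8 considered were 2-fold lower in A549, 1 of 9 in HCC827 and 2 of 9 in H1975. None was 2-fold higher, and the medians were -0.99, 0.39 and -0.50. In the same order of lines, 31.4%, 17.2% and 17.7% of all genes considered were 2-fold lower, and 30.0%, 10.7% and 15.4% higher. IFNAR1, a chain of the type I receptor, had 22.9 CPM with AL-X and 49.8 with DMSO in A549, 80.04 and 55.2 in HCC827, and 15.3 and 29.7 in H1975. JAK2, the kinase of the interferon gamma receptor, had the lowest fold among genes of the list at 5 CPM or more, -2.59 in A549, and the receptor chain IFNGR1 the highest, 0.78 in H1975.

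Among 11 STATs, IRFs and inhibitors, 4 were 2-fold higher and 3 lower in A549, 3 and 2 in HCC827, and 3 and 1 in H1975. Of all genes considered, 30.0% were higher and 31.4% lower in A549, 10.7% and 17.2% in HCC827, and 15.4% and 17.7% in H1975. SOCS1 (ENSG00000185338, chromosome 16, 11254405 to 11256200), an inhibitor of JAK kinases that interferon itself induces, had 114 CPM with AL-X and 0.468 with DMSO in A549, 7.74 and 1.72 in HCC827, and 229 and 2.14 in H1975. Its AL-X library was the higher in every line, by 7.88, 2.16 and 6.73 log2 units, with an across-line value of 5.92 (SE 1.14, edgeR adjusted p = 0.0643). With the other tools its adjusted p was 1.2e-08 (DESeq2) and 0.0023 (limma-voom). IRF7 (ENSG00000185507, chromosome 11, 612553 to 615999), which drives later interferon production, was higher with AL-X too, at 186 CPM with AL-X and 3.77 with DMSO in A549, 35.2 and 12.2 in HCC827, and 77.7 and 24.4 in H1975, with an across-line log2 fold of 2.75 (SE 0.80, edgeR adjusted p = 0.164) and an adjusted p of 0.0099 with DESeq2 and 0.035 with limma-voom. SOCS3, an inhibitor of cytokine signalling, had 838 and 17.5 CPM in A549, 2.28 and 21.6 in HCC827, and 135 and 15.7 in H1975.

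The other lists of the pathway, of nucleic acid sensors, antigen presentation by MHC class I and other induced genes, held 0 genes at an edgeR adjusted p under 0.05, and so did the ligand, receptor and STAT lists. Unadjusted, 1 of 15 sensors tested was higher and 4 lower, and 1 of 17 presentation genes was higher and 1 lower. Of 27 other induced genes, 1 was higher and 5 lower. Among all genes tested, 5.48% were higher and 10.2% lower at an edgeR unadjusted p under 0.05. Sensors were 2-fold lower in 6 of 10 considered in A549, 5 of 12 in HCC827 and 3 of 12 in H1975. They were 2-fold higher in 3 of 10, 2 of 12 and 0 of 12. Of all genes considered, 31.4%, 17.2% and 17.7% were 2-fold lower in the same order, and 30.0%, 10.7% and 15.4% higher. MAVS, the mitochondrial adaptor of the RNA sensors, had 12.2 CPM with AL-X and 354 with DMSO in A549, and TICAM1, the adaptor of TLR3, 46.9 and 6.50. Presentation genes had medians of 0.80, -0.15 and 0.37 in A549, HCC827 and H1975, with HLA-E at log2 folds of 2.64, 1.55 and 1.10 and the class I transactivator NLRC5 at -3.02, -0.91 and -1.68. Among other induced genes at 5 CPM or more the RNA sensor ZNFX1 had the highest fold, 2.11 in A549, and the ubiquitin ligase RNF213 the lowest, -5.40 in A549, where it had 24.2 CPM with AL-X and 1019 with DMSO.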

How the data were processed

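RNA of the 6 samples was extracted with Trizol and made into libraries with an mRNA kit (SureSelect XT HS2), per the labels' protocols. The submitters' processing notes name bcl2fastq 2.20 and GRCh38. Not given in the sources used here are the strand setting, the annotation release, the aligner, the counter and whether molecular barcodes were used. The table that the authors deposited holds raw counts of reads for each Ensembl gene. Of 60671 identifiers, 60401 matched a symbol table, and 58453 had a position and exonic length in GENCODE 29.

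From the counts, edgeR 4.0.16 in R 4.3.3 (TMM, filterByExpr, robust quasi-likelihood test, line as block) tested 20344 genes with 2 residual degrees of freedom, and 1 for line differences. The block follows the cell line label that both libraries of a line share. The labels do not tie a library to separate cultures, so p-values measure the spread between lines, which may be technical in part. Within lines, counting intervals are exact binomial at 95% and speak of counting error only, as reads may be copies of the same molecule. Bounds use a floor of 3 counts per library. Alternatives were DESeq2 1.42.0, limma-voom 3.58.1, other scalings, filters, minimums (1 or 10 CPM) and prior count (0.5), no robust shrinkage, no block, each line left out, and mitochondrial genes left out. Shared sequence was counted as 50-base stretches found in transcripts of another gene. The scripts were tested on simulated data.

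All genes of the list are named; per-library values follow a rule: the 4 highest and 4 lowest folds per line, the 3 highest DMSO levels per kb per line, and 10 fixed genes. Others were added after their values were seen. The genes and the pathway lists were chosen with earlier results of these data known. Promoter windows are those of RefSeq, GRCh38.p14, and windows for 8 genes were not used here. Some items are not reported here.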

Additional observations from a re-analysis of the deposited data

Results flagged for a closer look

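The AL-X response of 5 genes of the interferon pathway differed between lines at an edgeR adjusted p under 0.05 (interaction term, 1 line against the mean of the other lines). They are listed because they passed this threshold. Of all genes tested, 0.280% passed for A549, 0.261% for HCC827 and 0% for H1975. The pathway lists held 1 ligand, 9 receptor and kinase genes and 11 STATs, IRFs and inhibitors that were tested. They also held 15 sensors, 17 presentation genes and 27 other induced genes that were tested. SOCS3 (ENSG00000184557) had a difference in log2 fold of -7.58 in HCC827 (SE 1.32, edgeR adjusted p = 2.9e-05), with 2.28 CPM with AL-X and 21.6 with DMSO in HCC827, 838 and 17.5 in A549, and 135 and 15.7 in H1975. SOCS1 had a difference of -5.15 in HCC827 (SE 1.19, edgeR adjusted p = 0.00929). Its fold was above 0 in all 3 lines. IRF7 had a difference of 4.02 in A549 (SE 0.91, edgeR adjusted p = 0.0428), and with DESeq2 size factors the adjusted p was 0.0721.

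STING1 (ENSG00000184584), the adaptor of cytosolic DNA sensing, had a difference of -10.45 in A549 (SE 1.91, edgeR adjusted p = 0.00543). It had 0 counts with AL-X and 375 with DMSO there, at least 69.1-fold lower, and 23.7 and 59.3 CPM in HCC827. The size of the difference therefore depends on the prior count. HELZ2 (ENSG00000130589), a helicase that coactivates nuclear receptors, had a difference of -5.04 in A549 (SE 1.01, edgeR adjusted p = 0.0179), with 0.683 and 29.3 CPM in A549, 165 and 102 in HCC827, and 63.1 and 173 in H1975. With library totals as the only scaling none of the 5 passed, at edgeR adjusted p-values of 0.185 for IRF7, 0.632 for SOCS1, 0.210 for SOCS3, 0.0554 for STING1 and 0.0829 for HELZ2. Under that scaling 0 of all 20344 genes tested passed for A549, HCC827 or H1975, so the loss was not particular to these 5.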

How the results depend on the processing

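The count of 0 interferon-stimulated genes at an adjusted p under 0.05 across lines was 15 with DESeq2 and 3 with limma-voom, all lower, and 0 to 3 when a line was left out, with 1 without A549, 0 without HCC827 and 3 without H1975. Of all genes tested, 78 of 21133 were then called lower without A549, 57 of 20734 without HCC827 and 78 of 21401 without H1975. Under no replicate block, which drops the pairing by line, the count was 0 of the 45. In that fit 0 of all 20344 genes tested were called, so this 0 says nothing particular to the list. With library totals, A549 had 23 genes 2-fold lower, against 51.9% of all genes, and a median of -2.35, against -1.10 for all genes. H1975 then had 0 genes 2-fold higher, against 6.91% of all genes. A minimum of 1 CPM gave 1 gene higher in A549, and removing the length trend gave 1 higher in A549 and 1 in H1975. Shares of all genes at these 2 settings are not given here, so these counts have no comparison. At the 5 CPM minimum 30.0% of all genes considered in A549 were 2-fold higher. The across-line median lay between -1.61 and -0.80 when a line was left out. No call at 2-fold changed sign under the alternatives run for it, whereas signs of smaller folds changed with library totals, as given above. Signs of across-line values changed too. Of the 45 genes, 7 lay above 0 in the main fit, 3 with library totals and 15 with no replicate block. With a line left out, 12 lay above 0 without A549, 12 without HCC827 and 4 without H1975. The cause of these moves was not tested. In A549 21 of the 45 genes stayed under 5 CPM, where counting error is widest.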
